A study of Mus musculus with 6 samples.

Results

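The genes described here encode the machinery that makes peptides and loads them onto MHC class I molecules: the peptide transporter subunits Tap1 and Tap2, the loading factor Tapbp, the immunoproteasome subunits Psmb8, Psmb9 and Psmb10, the transcriptional regulator Nlrc5, and the class I chains B2m, H2-K1 and H2-D1. They were chosen by name and function, with earlier results of these data known. All 10 were found among the 23390 genes of the count table. Their RNA was measured by sequencing in viable epithelial cells from the small intestine of C57BL/6 mice, sorted by flow cytometry for EpCAM, an epithelial surface protein, and against CD45, a leukocyte one. The 3 Maf.flox libraries came from control mice labelled with floxed Maf and without Cre. The 3 Vil.Cre Maf.flox libraries came from mice labelled with floxed Maf and with Vil.Cre, Cre driven by the villin promoter, which is active in intestinal epithelium. Since no group had Cre alone, effects of Cre and of the loss of Maf cannot be told apart. Age and treatment are not labelled, and the labels do not name separate mice for the libraries, so p-values cover only the spread from library to library.

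MHC class I molecules show peptides from inside the cell to CD8+ T cells. Proteasomes cut proteins into peptides, the TAP transporter, a dimer of Tap1 and Tap2, carries these into the endoplasmic reticulum, and the peptide-loading complex, which tapasin (Tapbp) joins to TAP, fits them onto a heavy chain paired with beta-2-microglobulin (B2m). Interferon-gamma is known to induce many of these genes, including Nlrc5 and the immunoproteasome subunits, which replace constitutive ones. Nlrc5 acts at class I promoters together with DNA-binding factors. Intestinal epithelium makes class I molecules and faces a dense population of intraepithelial CD8+ T cells.

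Only Tap1 among the 10 genes passed the test over all genes, and it rose 1.93-fold in Vil.Cre Maf.flox. Tap2, Psmb8, Psmb9, Psmb10 and Nlrc5 were not called, but each had a level in every Vil.Cre Maf.flox library above that in every control. Tapbp, B2m, H2-K1 and H2-D1 overlapped between the groups. Thus 1 of 10 genes was called higher and 0 lower at an adjusted p under 0.05 (edgeR's quasi-likelihood test, Benjamini-Hochberg adjustment), where 0.189% of the 13740 genes tested were called higher, 0.357% lower and 0.546% in either direction. At an unadjusted p under 0.05 there were 7 of the 10, all above 0, against 7.11% of all genes tested that were higher and 16.4% in either direction. The groups did not overlap in 6 of the 10 genes, against 20.6% of all genes tested, of which 1381 were higher and 1444 lower in Vil.Cre Maf.flox. All 10 genes had a log2 fold change above 0, with Tapbp and B2m close to 0, as had 6655 of the 13740 tested. The median was 0.50 over the 10 genes and -0.01 over all genes tested.

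Each library held between 17464355 and 24802525 counts. Maf itself had 9398, 5615 and 3893 counts in the controls and 16, 1 and 1 in Vil.Cre Maf.flox, a log2 fold change of -9.89 (adjusted p = 0.0133, edgeR's quasi-likelihood test). The epithelial label fits the markers: Epcam was at 2178 ± 160 and 2038 ± 163 CPM (counts scaled to library size by the TMM method; SD, n = 3 each), while Ptprc, which encodes CD45, averaged 1.14 and 0.315 CPM. Maf.flox replicate 3 stood apart from the other controls, with a chi-square per gene of 133 and 61.6 against them and of 37.8 between them. By Xist and Y-linked counts, 1 of 3 controls and 2 of 3 Vil.Cre Maf.flox libraries were male.

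Short stretches of the promoters of these genes were compared because the class I genes are classically controlled through shared upstream elements. The sequences are from RefSeq (GRCm38.p6), where 8 of the 10 genes had a window from 250 bases before to 50 bases after the start site. Tap2 and Nlrc5 had none. The motifs searched on both strands were TGACGTCA, the cyclic AMP response element, and its shorter form TGACG; the NF-kB type GGGGANTCC; GAAANNGAA, of the interferon-stimulated response element; TTCNNNGAA, the gamma-activated site; CCAAT, the NF-Y box; and TGCTGAC, a part of the Maf recognition element. A further motif, GAANNGAAA, a variant of the interferon-stimulated element, was added after the windows had been seen. TGACG occurred in the windows of Tap1, Psmb9, B2m, H2-K1 and H2-D1, and in 20.8% of all 32851 windows. The first 4 stretches below are 30 bases each with TGACG in capitals, at chr17:34000374-34000403 on the minus strand and, on the plus strand, at chr17:35262978-35263007, chr2:122147594-122147623 and chr17:34187455-34187484.
H2-K1: ctgtccggacactgtTGACGcgcagtcagc
H2-D1: ctgccgggacactgaTGACGcgctggcagg
B2m: cagctaggagactggTGACGacctccggat
Tap1: ctgcccagagacaggTGACGacagagggtc

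H2-K1 and H2-D1 had the same base at 24 of these 30 positions, B2m and Tap1 at 19, and H2-K1 and B2m at 15. These numbers include the bases of TGACG itself, which agree because the stretches were aligned on it. The Tap1 site is also the Psmb9 site, read from the other strand. These genes lie head to head, with RefSeq start sites 226 bases apart, and their windows share 275 of 300 bases. In GENCODE M21 the H2-K1 stretch lies outside annotated genes. The H2-D1 stretch lies in the untranslated first part of 1 H2-D1 transcript, the Tap1 stretch in that of 1 Psmb9 transcript, and the B2m stretch in an intron of Patl2 on the other strand, a gene with at most 1 count in any library.

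The heavy chain genes H2-K1 and H2-D1 also shared a stretch with the GGGGANTCC motif and GAANNGAAA, both in capitals, the latter read on the other strand. GGGGANTCC is found in 1.19% of all windows and matched here on both strands at overlapping positions, and GAANNGAAA is found in 7.52%. The stretches lie at chr17:34000429-34000458 (minus strand) and chr17:35262923-35262952 (plus strand) and differ at 1 of 30 bases.
H2-K1: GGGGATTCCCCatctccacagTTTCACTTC
H2-D1: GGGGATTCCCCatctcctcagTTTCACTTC

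B2m held GAAANNGAA, which none of the other 7 windows had and 8.56% of all windows have. Its 150 bases before the annotated start (chr2:122147536-122147685, plus strand) are shown with GAAANNGAA, TGACG and CCAAT, the last as its complement, in capitals.
B2m: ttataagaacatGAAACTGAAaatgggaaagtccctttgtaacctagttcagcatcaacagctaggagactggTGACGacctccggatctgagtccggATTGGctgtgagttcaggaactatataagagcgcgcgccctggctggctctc

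CCAAT was also in the windows of Tap1, Psmb9, Tapbp, H2-K1 and H2-D1, and in 37.4% of all windows. Its Tap1 and Psmb9 matches are again the same site, read from opposite strands. TTCNNNGAA was in the Psmb8 window alone (8.3% of all windows). The Psmb10 window held none of the 8 motifs. TGCTGAC, present in 4.67% of all windows, and TGACGTCA, present in 1.79%, were in none of the 8. A match is a description of these letters, and binding was not measured.

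Tap1, on chromosome 17 (GRCm38, chr17:34187553-34197225, plus strand), encodes a subunit of the TAP transporter that moves peptides across the endoplasmic reticulum membrane. Its level was 91.57, 76.94 and 114.8 CPM in Maf.flox replicates 1, 2 and 3 and 201.8, 163.3 and 181.2 CPM in Vil.Cre Maf.flox replicates 1, 2 and 3. The lowest Vil.Cre Maf.flox library thus lay 1.42-fold above the highest control, which was replicate 3. The log2 fold change was 0.95 (SE 0.156, 95% interval 0.59 to 1.30, adjusted p = 0.0457, edgeR's quasi-likelihood test), and Tap1 ranked 62nd by p among all genes tested. The call was close to the threshold and was lost in 8 of 14 alternative fits, with log2 fold changes from 0.83 to 1.11 and adjusted p from 5.8e-06 to 0.234 over these fits. It was lost with sex as a term (0.96, adjusted p = 0.0697) and without each library but Maf.flox replicate 3 (adjusted p between 0.0748 and 0.234).

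Tap2 (chr17:34203527-34216321, plus strand) encodes the other subunit of the transporter. Its level was 43.31, 42.58 and 47.62 CPM in Maf.flox, against 62.03, 58.84 and 57.42 CPM in Vil.Cre Maf.flox. The libraries of each group were close together, with the highest at 1.12 times the lowest in the controls and 1.08 times in Vil.Cre Maf.flox. The log2 fold change of 0.42 (SE 0.092, 95% interval 0.21 to 0.63) did not pass the test (adjusted p = 0.0859, edgeR's quasi-likelihood test). Tapbp (chr17:33915899-33929288, plus strand), whose product tapasin bridges TAP and the class I molecule, was at 255.0, 245.4 and 213.2 CPM in Maf.flox, against 248.2, 260.3 and 210.9 CPM in Vil.Cre Maf.flox. Its groups overlapped fully, with replicate 3 the lowest of each, and the log2 fold change was 0.01 (95% interval -0.27 to 0.29, adjusted p = 0.978). Tapbp shares 3421 bases on its own strand with Zbtb22, which had 797 to 1203 counts and a log2 fold change of -0.08.

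**Figure D1:**
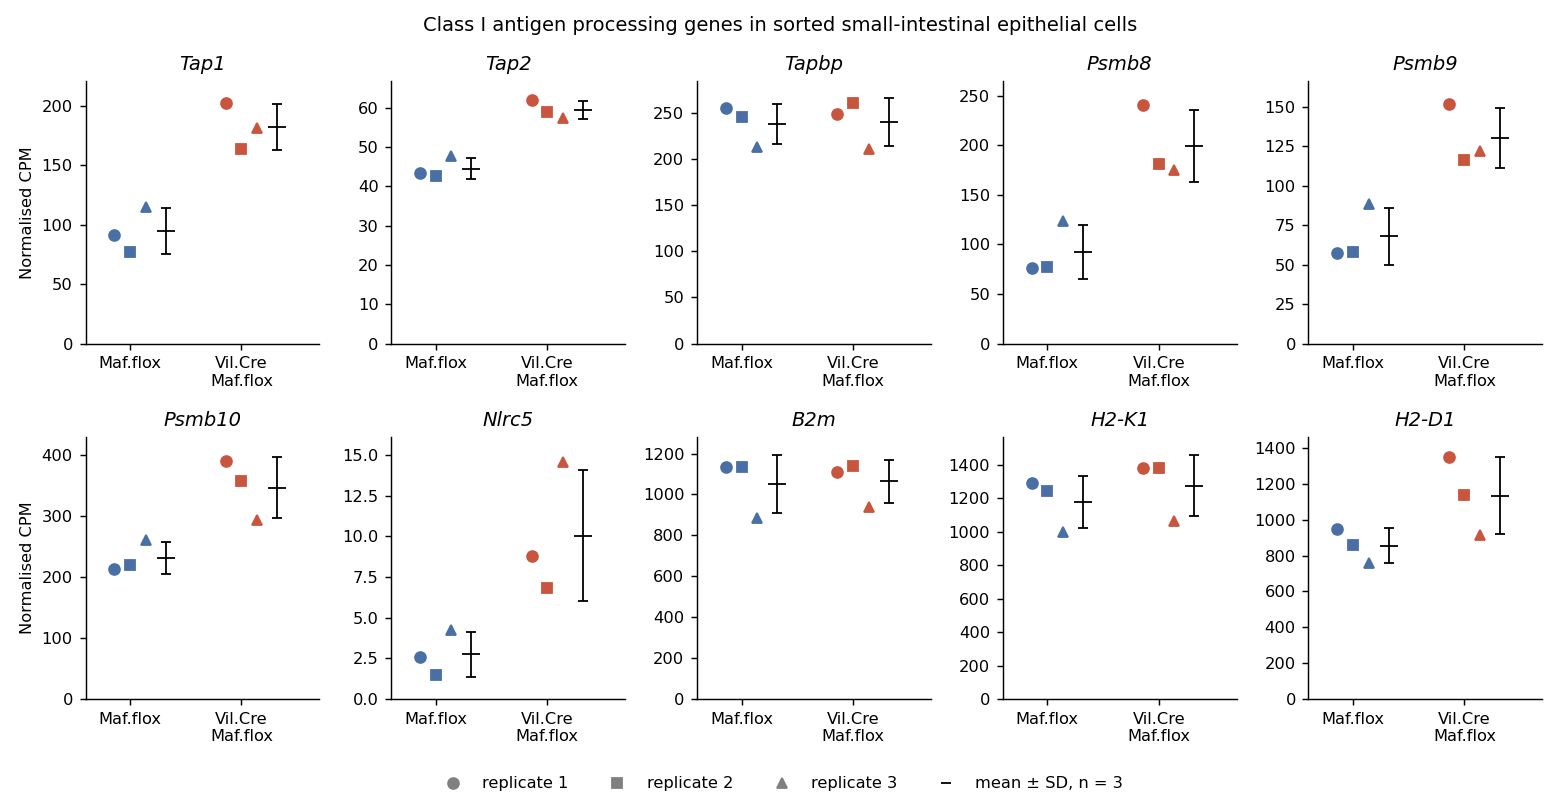
TMM-normalised CPM of each gene (vertical axes, each from 0) in the 3 Maf.flox and 3 Vil.Cre Maf.flox libraries, with symbols for replicates 1, 2 and 3 and a bar for mean ± SD. In Tap1, Tap2, Psmb8, Psmb9, Psmb10 and Nlrc5 the groups do not overlap, while in Tapbp, B2m, H2-K1 and H2-D1 they do.

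Psmb8, Psmb9 and Psmb10 encode the catalytic subunits of the immunoproteasome, the proteasome form with altered cleavage preference. Psmb8 (chr17:34197721-34201454, plus strand) was at 76.48, 77.61 and 123.7 CPM in Maf.flox, against 241.2, 181.6 and 175.5 CPM in Vil.Cre Maf.flox. Maf.flox replicate 3 lay 1.62-fold above the lowest control, and the lowest Vil.Cre Maf.flox library lay 1.42-fold above Maf.flox replicate 3. The log2 fold change of 1.11 (SE 0.215, 95% interval 0.61 to 1.60) did not pass the test (adjusted p = 0.0736, edgeR's quasi-likelihood test).

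Psmb9 (chr17:34181988-34187764, minus strand) was at 57.56, 57.73 and 88.7 CPM in Maf.flox, against 151.9, 116.6 and 122.3 CPM in Vil.Cre Maf.flox. The order was the same as for Psmb8 in its ends, with Maf.flox replicate 3 the highest control and Vil.Cre Maf.flox replicate 1 the highest of all. The log2 fold change was 0.94 (SE 0.189, 95% interval 0.50 to 1.37, adjusted p = 0.0736, edgeR's quasi-likelihood test). Psmb9 and Tap1 overlap by 212 bases on opposite strands, and strand use in counting is not given in the sources used here, so reads of this short overlap cannot be told apart. Psmb10 lies outside the MHC (chr8:105935735-105938444, minus strand) and was at 212.7, 219.9 and 261.3 CPM in Maf.flox, against 390.6, 357.8 and 293.1 CPM in Vil.Cre Maf.flox. The gap between groups was narrow, with Vil.Cre Maf.flox replicate 3 at 1.12 times Maf.flox replicate 3, and the log2 fold change of 0.59 (SE 0.140, 95% interval 0.27 to 0.90) did not pass (adjusted p = 0.0974).

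Nlrc5 (chr8:94434356-94527272, plus strand), the class I transactivator, had the largest fold change and the fewest counts of the 10 genes. Its counts were 61, 28 and 89 in Maf.flox and 173, 116 and 340 in Vil.Cre Maf.flox, or 2.565, 1.458 and 4.221 CPM against 8.775, 6.812 and 14.55 CPM. The groups did not overlap, but each varied widely, with the highest library at 2.9 times the lowest in the controls and at 2.14 times in Vil.Cre Maf.flox. Vil.Cre Maf.flox replicate 3 was the highest here, unlike in Tap1 and the Psmb genes, where replicate 1 was. The log2 fold change was 1.87 (SE 0.416, 95% interval 0.90 to 2.83, adjusted p = 0.0935, edgeR's quasi-likelihood test).

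B2m (chr2:122147686-122153083, plus strand), the invariant light chain of class I molecules, was at 1135, 1134 and 886.8 CPM in Maf.flox, against 1112, 1138 and 941.2 CPM in Vil.Cre Maf.flox. Its libraries overlapped almost entirely, and the log2 fold change was 0.02 (95% interval -0.32 to 0.35, adjusted p = 0.974, edgeR's quasi-likelihood test). H2-K1 (chr17:33996017-34000333, minus strand), a classical heavy chain, was at 1288, 1242 and 998.2 CPM in Maf.flox, against 1381, 1377 and 1065 CPM in Vil.Cre Maf.flox, with a log2 fold change of 0.12 (95% interval -0.25 to 0.48, adjusted p = 0.781). In B2m and H2-K1 alike, replicate 3 was the lowest library of each group.

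H2-D1 (chr17:35262730-35267499, plus strand), the other classical heavy chain, was at 950.3, 856.0 and 759.1 CPM in Maf.flox, against 1349, 1137 and 916.4 CPM in Vil.Cre Maf.flox. The groups overlapped by a single library, since Vil.Cre Maf.flox replicate 3 lay just below Maf.flox replicate 1. The log2 fold change of 0.41 (SE 0.168, 95% interval 0.03 to 0.79) was not called (adjusted p = 0.275, edgeR's quasi-likelihood test). H2-K1 and H2-D1 are close in sequence to each other and to other class I genes, and reads that fit several of them can be split or lost in counting.

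**Figure D2:**
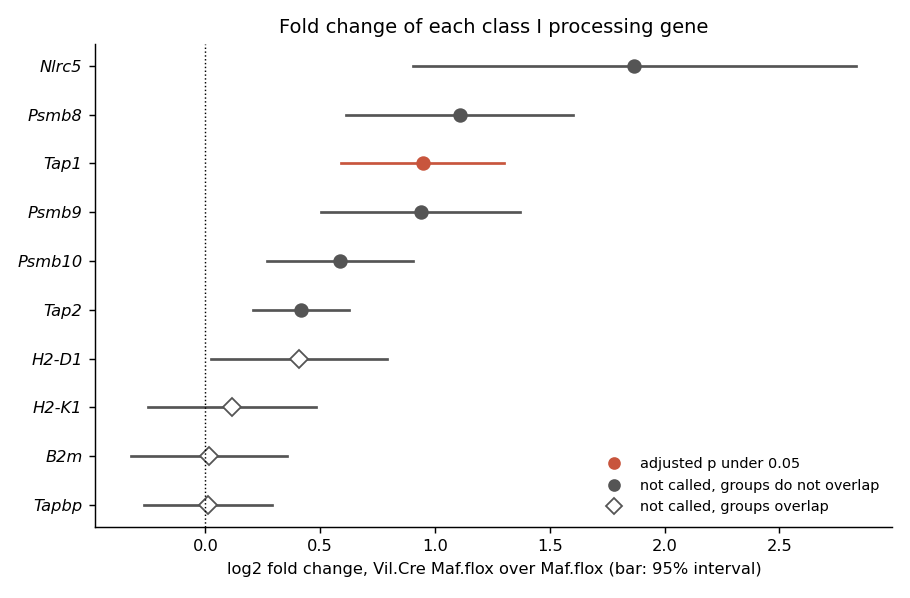
Log2 fold change of Vil.Cre Maf.flox over Maf.flox for each gene (points) with its 95% interval from the edgeR fit (bars), ordered by size. Tap1 is the gene past an adjusted p of 0.05, and the largest value is that of Nlrc5, 1.87, which also has the widest interval, 0.90 to 2.83.

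The 10 genes thus fell into different orders across libraries. Maf.flox replicate 3 was the highest control for Tap1, Tap2, Psmb8, Psmb9, Psmb10 and Nlrc5, and the lowest control for Tapbp, B2m, H2-K1 and H2-D1. Without this library all 6 of the former were called higher by edgeR's quasi-likelihood test, where 0.884% of genes were called higher. Without any 1 of the other 5 libraries none of the 10 was called, in fits that called between 8 and 31 genes in all and between 4 and 16 higher. The 6 were also the genes called by DESeq2 with all libraries, where 2.1% of genes were called higher. Without a filter on low counts edgeR called 3 of the 10 (0.653% of all genes were higher), and with the replicate number as a block also 3 (0.961%). With limma-voom (0.0946%) or with sex as a term (0.109%) none of the 10 was called. The median of the 10 genes, as log2 CPM from each gene's mean, was -0.326, -0.314 and -0.169 in Maf.flox replicates 1, 2 and 3, against 0.468, 0.274 and 0.108 in Vil.Cre Maf.flox.

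By level per gene length (FPKM), B2m was the most abundant in the controls at 1218 ± 169, followed by H2-K1 at 449.1 ± 61.4, H2-D1 at 330.2 ± 39.4, Psmb10 at 135.0 ± 14.9 and Tapbp at 71.85 ± 6.97 FPKM (SD, n = 3 each). Psmb8 at 33.67 ± 9.70, Psmb9 at 18.49 ± 4.82, Tap1 at 17.17 ± 3.48, Tap2 at 11.72 ± 0.708 and Nlrc5 at 0.322 ± 0.163 FPKM followed. Of neighbours in this order, Psmb9 and Tap1 were within each other's range, while the other pairs did not overlap between libraries. In Vil.Cre Maf.flox, Psmb8 was at 73.07 ± 13.3 FPKM, within the range of Tapbp at 72.90 ± 7.57. H2-D1 at 440.8 ± 83.4 FPKM likewise overlapped H2-K1 at 489.7 ± 68.3 in that group. These levels rest on the deposited gene lengths, such as 860 bases for B2m and 8493 for Nlrc5.

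Ratios within a library do not depend on the scaling between libraries. The immunoproteasome subunits were set against the constitutive subunits they replace, as counts per kilobase. The ratio of Psmb8 to Psmb5 was 0.279, 0.296 and 0.447 in Maf.flox and 0.603, 0.533 and 0.571 in Vil.Cre Maf.flox, a 1.71-fold difference in geometric mean. The ratio of Psmb9 to Psmb6 was 0.236, 0.252 and 0.343 against 0.437, 0.377 and 0.448, a 1.54-fold difference. The ratio of Psmb10 to Psmb7 was 5.7, 5.97 and 6.41 against 7.23, 7.59 and 6.61, a 1.19-fold difference. In all 3 ratios the groups did not overlap, and the difference was smallest for Psmb10, whose counts exceed those of Psmb7 per length in every library. Expressed as a share of each pair's counts per kilobase, Psmb8 made up 25.2 ± 4.98% in Maf.flox and 36.2 ± 1.43% in Vil.Cre Maf.flox, Psmb9 21.6 ± 3.48% and 29.6 ± 1.91%, and Psmb10 85.7 ± 0.717% and 87.7 ± 0.763% (SD, n = 3 each). These shares and the levels of the ratios rest on the deposited gene lengths, while the fold differences between groups do not. The lengths were 2736 bases for Psmb8 and 899 for Psmb5, and 3659 for Psmb9 and 1872 for Psmb6. They were 1705 for Psmb10 and 3421 for Psmb7. Psmb7 overlaps Nek6 on the other strand by 6571 bases, and Nek6 had a log2 fold change of -0.59.

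The class I chains were compared with each other in the same way. The ratio of H2-K1 to H2-D1 was 1.34, 1.43 and 1.3 in Maf.flox and 1.01, 1.2 and 1.15 in Vil.Cre Maf.flox, with no overlap and a ratio of group means on the log scale of 0.823. The summed heavy chains relative to B2m were 0.653, 0.613 and 0.657 in Maf.flox and 0.814, 0.732 and 0.698 in Vil.Cre Maf.flox, a 1.17-fold difference. Each of the 5 ratios had p = 0.1 by the two-sided exact permutation test, also after Benjamini-Hochberg adjustment over the 5, which is the smallest p that 3 libraries against 3 allow. This test can therefore not pass a threshold of 0.05 with these libraries.

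**Figure D3:**
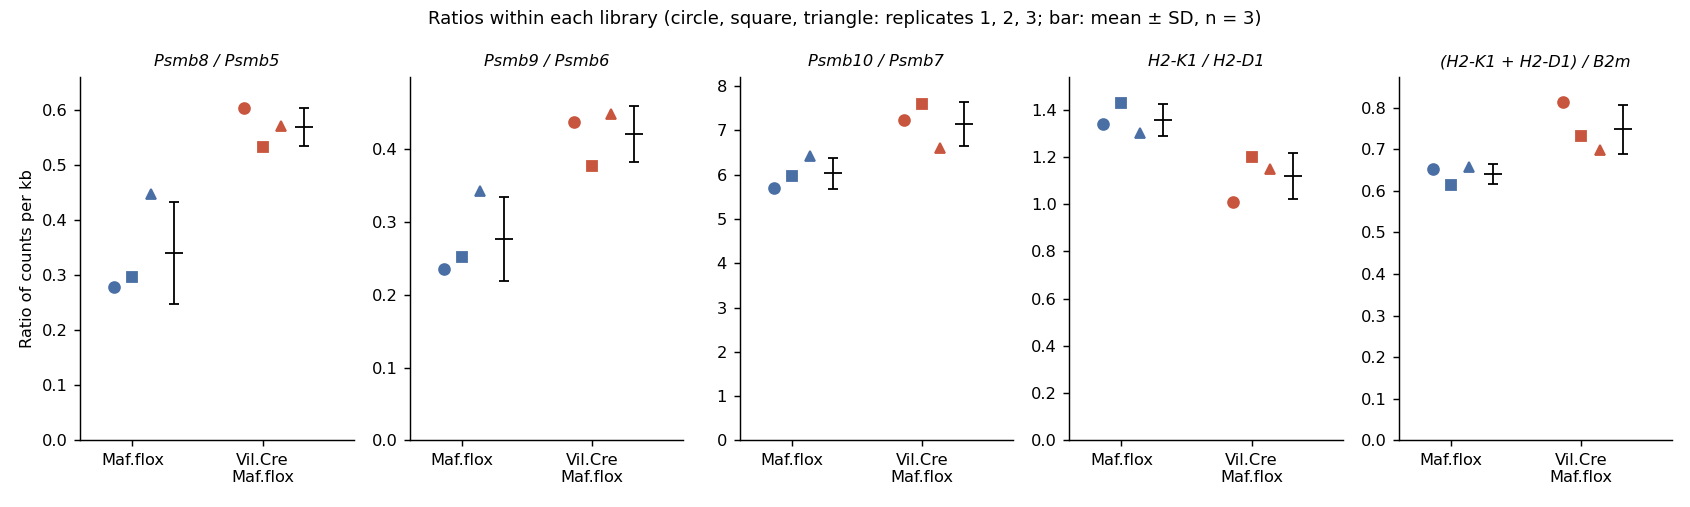
Ratios of counts per kilobase within each library (vertical axes from 0), with symbols for replicates 1, 2 and 3 and a bar for mean ± SD in each group. The groups do not overlap in any of the 5 ratios. Psmb8 to Psmb5 was 0.341 ± 0.0927 in Maf.flox and 0.569 ± 0.0351 in Vil.Cre Maf.flox, and H2-K1 to H2-D1 was 1.36 ± 0.0688 and 1.12 ± 0.0958.

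The constitutive catalytic subunits themselves, Psmb5, Psmb6 and Psmb7, had log2 fold changes of 0.37, 0.35 and 0.34. None was called (adjusted p between 0.172 and 0.194, edgeR's quasi-likelihood test), against 0.546% of all genes tested. Psmb5 was at 89.01 ± 2.42 CPM in Maf.flox, against 114.8 ± 15.4 CPM in Vil.Cre Maf.flox, with no overlap between libraries. The 11 other subunits of the 20S core were all above 0, with a median of 0.34 and a range of 0.23 (Psmb1) to 0.43 (Psmb4). None of the 11 was called either, against the same 0.546%. All 11 had the Vil.Cre Maf.flox libraries above the controls, as had 1381 of the 13740 genes tested. Psma3 had 0.42 and Psma4 0.31. Psmb8, Psmb9 and Psmb10 had larger values than each of these 14 subunits.

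Of 10 genes for proteasome activators and assembly, 0 were called, against 0.546% of all genes tested, 8 were above 0 and the median was 0.21. The groups did not overlap in 5, all higher in Vil.Cre Maf.flox, against 20.6% of all genes tested in either direction. Psme1 and Psme2 encode the PA28 activator, which interferon-gamma is known to induce. Psme2 was at 202.9 ± 22.95 CPM in Maf.flox, against 286.1 ± 22.3 CPM in Vil.Cre Maf.flox, with a log2 fold change of 0.50 (adjusted p = 0.0983, edgeR's quasi-likelihood test). Psme1 had 0.31 (adjusted p = 0.224) and Psme2b, a near copy of Psme2 that can share its reads, 0.53 (adjusted p = 0.0962). The lowest values were -0.16 each for the assembly chaperones Psmg2 and Psmg3.

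Of 12 other genes for peptide loading and editing, 11 were in the table, of which 9 were above 0, with a median of 0.25. Of these 11, 0 were called, against 0.546% of all genes tested. The groups did not overlap in 8 that were higher and 1 that was lower, against 20.6% of all genes tested. At an unadjusted p under 0.05 (edgeR's quasi-likelihood test) there were 6, against 16.4%. The largest values were those of the chaperone calreticulin (Calr), at 0.53, and of the disulfide isomerase Pdia3, at 0.50, both of which work in the loading complex. Calr was at 1065, 886.6 and 896.8 CPM in Maf.flox, against 1601, 1429 and 1097 CPM in Vil.Cre Maf.flox, without overlap and not called (adjusted p = 0.174, edgeR's quasi-likelihood test). The cytosolic peptidases Lap3 and Blmh had the lowest values, -0.37 and -0.18.

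Of 23 regulators of class I genes and members of interferon-gamma signalling, 0 were called, against 0.546% of all genes tested. Of these, 7 were above 0 and 16 below, and the median of -0.03 was close to that of all genes tested. The groups did not overlap in 4, all higher in Vil.Cre Maf.flox, against 20.6% of all genes tested in either direction. Irf1, a transcription factor of the interferon response, was at 132.7, 166.9 and 158.7 CPM in Maf.flox, against 207.9, 202.1 and 205.2 CPM in Vil.Cre Maf.flox, without overlap. Its log2 fold change was 0.43 (adjusted p = 0.123, edgeR's quasi-likelihood test), and that of Irf8, of the same family, was 0.66 (adjusted p = 0.0631). Ciita, the class II counterpart of Nlrc5, was at 46.93 ± 14.5 CPM in Maf.flox, against 65.78 ± 6.13 CPM in Vil.Cre Maf.flox, with overlap between libraries and an adjusted p of 0.28. The lowest values were -0.35 for Rfxank, a partner of Nlrc5 and Ciita at their promoters, and -0.26 for the interferon-gamma receptor chain Ifngr1.

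Of 26 nonclassical class I and class I-like genes, 21 were in the table and 18 had enough counts to be tested. None of the 18 was called, against 0.546% of all genes tested, 8 were above 0, and the median was -0.11. The groups did not overlap in 2 that were higher and 1 that was lower, against 20.6% of all genes tested. H2-Q7 and H2-Q6 had the largest values, 1.48 and 0.98, at 4.13 ± 3.36 and 4.09 ± 2.36 CPM in Maf.flox, against 11.45 ± 4.23 and 8.05 ± 0.713 CPM in Vil.Cre Maf.flox. H2-Q1 and H2-Bl had the lowest, -0.76 and -0.70. The H2-Q genes are paralogs of similar sequence that can share reads, and their single counts are uncertain.

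**Figure D4:**
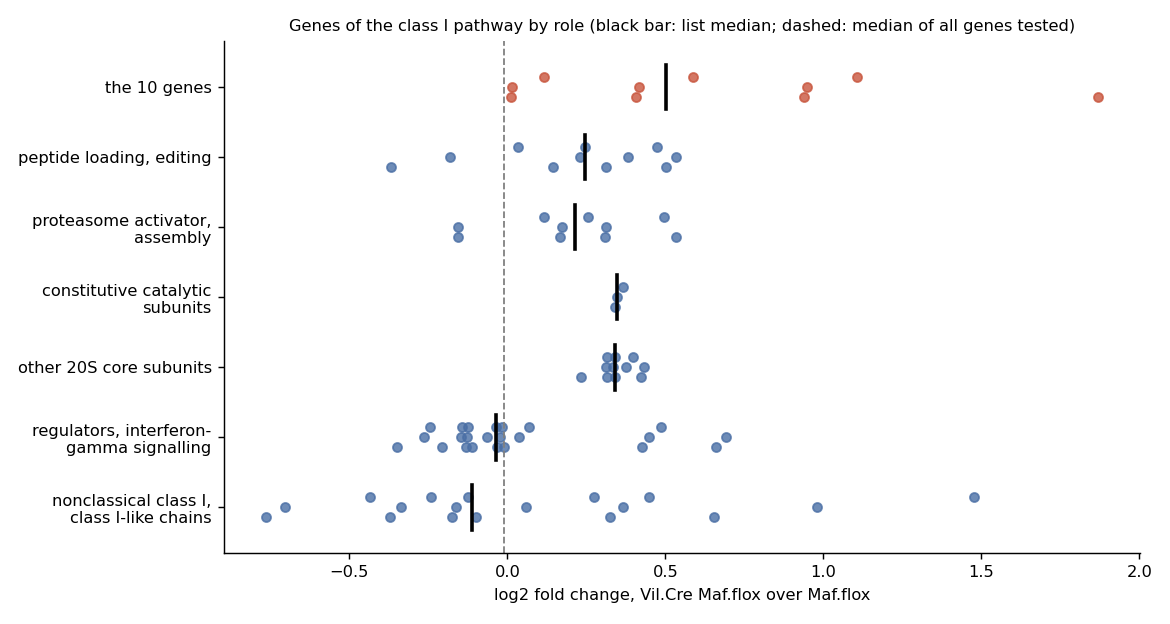
Log2 fold change of Vil.Cre Maf.flox over Maf.flox (horizontal axis) for the 10 genes and for each tested gene of 6 lists of the pathway (points; vertical offsets only separate them), with each list's median as a black bar and the median of all genes tested as a dashed line. The median was 0.50 for the 10 genes, 0.34 for the other 20S core subunits and -0.11 for the nonclassical class I genes.

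The genes whose pattern over the 6 libraries was closest to the median of the 10 genes, among 8660 protein-coding genes averaging 10 CPM or more, were Chchd10, Frrs1, Piezo1, Ms4a12 and Eif2s2. Their Euclidean distances in centred log2 CPM were 0.117, 0.12, 0.136, 0.138 and 0.14. Their log2 fold changes lay between 0.54 (Chchd10) and 0.65 (Piezo1), and none was called.

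Leukocytes make many of these genes, and the sort should exclude them. Of 23 leukocyte markers, 22 had a row, and their summed level was 28.8 to 38.5 CPM in Maf.flox and 36.2 to 54.9 CPM in Vil.Cre Maf.flox, with overlap. None of the 8 that could be tested was called, where 0.546% of all genes tested were called. Most of the sum came from Lcp1, at 17.45 and 15.99 CPM on average in Maf.flox and Vil.Cre Maf.flox, Itgam, at 6.80 and 12.57 CPM, and the immunoglobulin genes Igha, at 2.70 and 5.66 CPM, and Igkc, at 2.53 and 4.79 CPM. In Vil.Cre Maf.flox replicates 1, 2 and 3, Igha was at 3.55, 11.5 and 1.93 CPM and Igkc at 2.33, 10.9 and 1.11 CPM. The higher means of both genes in that group thus rest on replicate 2, which also had the largest sum, 54.9 CPM. Itgam did not overlap, at 5.72, 7.18 and 7.49 CPM in Maf.flox, against 15.3, 11.6 and 10.8 CPM in Vil.Cre Maf.flox (adjusted p = 0.0795, edgeR's quasi-likelihood test). Nor did Ms4a1, at 0.126, 0.0521 and 0.0949 CPM against 0.659, 0.528 and 0.471 CPM (adjusted p = 0.0736), from 1 to 13 counts per library. Ptprc and Lcp1 had lower means in Vil.Cre Maf.flox, with overlap. The defining T-cell marker Cd3e averaged 0.0314 and 0.0846 CPM, from 0 to 2 counts per library. The other T-cell markers of the list differed in direction. Cd3g averaged 0.162 and 0.138 CPM and Cd4 0.0701 and 0 CPM. Cd8a averaged 0.0752 and 0.191 CPM and Trac 0.091 and 0.365 CPM. Trac was at 0.126, 0.0521 and 0.0949 CPM in Maf.flox, against 0.406, 0.176 and 0.513 CPM in Vil.Cre Maf.flox, without overlap. The lymphocyte markers Gzma, Gzmb and Nkg7 all had higher means in Vil.Cre Maf.flox, with overlap between libraries. They averaged 0.506 and 0.850, 0.128 and 0.283, and 0.0174 and 0.0766 CPM. The part of leukocytes in the differences of the class I genes was not tested. In such bulk samples a change in the share of a cell type and a change of RNA per cell cannot be told apart.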

How the data were processed

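Libraries were made from polyadenylated RNA with random hexamer priming, per the labels' protocols, which do not say whether strand was kept. HISAT2 2.0.5, featureCounts 1.5.0-p3 and DESeq2 are named for GRCm38 (mm10), per the submitters' processing notes. The deposited values are whole-number counts per gene, not normalised, and FPKM, which the authors made from these counts, gene length and 1 library size per library (0.953 to 1.07 times the summed counts). The deposited gene length, in bases, was used for ratios. No column of values was left unmapped.

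The main test of the counts was the quasi-likelihood F test of edgeR 4.0.16 (R 4.3.3), robust, after filterByExpr (minimum count 10) and TMM scaling, with genotype as the only term and p adjusted by Benjamini-Hochberg over 13740 genes. FPKM served to compare levels between genes and was not tested. Profiles over libraries are log2 CPM (prior count 2). With this depth 1 CPM is 17.5 to 24.8 counts. No library was a copy of another: chi-square per gene between replicates was 35.2 to 133. Alternatives were RLE and upper quartile scaling, no filter, a filter of 1 CPM in 3 libraries, DESeq2 1.42.0, limma-voom (limma 3.58.1), a replicate block, a sex term, other thresholds and leaving out each library.

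The genes, lists and tests were chosen with earlier results of these data known. Named were the 10 genes; Maf; of each list the called genes and the 2 largest and 2 smallest fold changes; Ciita, Psmb5, Psmb6, Psmb7, Irf1, Psme1 and Psme2; Epcam, Ptprc and the 2 highest leukocyte markers; and the 5 genes of closest pattern. Overlapping genes (Zbtb22, Nek6, Patl2), Igha, Igkc, Cd3e, Cd3g, Cd4, Cd8a, Trac, Gzma, Gzmb, Nkg7 and Ms4a1 were named after their values were seen. A gene that this rule takes is not reported here.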

Additional observations from a re-analysis of the deposited data

How the results depend on the processing

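Against 75 genes called and 1 of the 10 class I genes, there were 365 and 3 without a filter, 760 and 6 with DESeq2, 34 and 0 with limma-voom, 38 and 0 with a sex term, 2 and 0 at an adjusted p of 0.01, and 372 and 6 at 0.1. The stricter filter left 58 genes, of which 22 were higher, and 0 of the 10. Tap1 then had a log2 fold change of 0.94 (adjusted p = 0.0505, edgeR's quasi-likelihood test). Leaving out 1 library gave 8 to 701 genes and 0 to 6 of the 10, with 701 and 6 without Maf.flox replicate 3; the cause was not tested. With the replicate block, 440 genes and 3 of the 10 were called (0.961% of all genes were higher), Tap1, Psmb9 and Nlrc5 (adjusted p = 0.00434, 0.0389 and 0.00246, edgeR's quasi-likelihood test). The numbers were not taken to pair libraries, since same-numbered libraries deviated together with correlations of only 0.0917, -0.0256 and 0.269 and only replicate 3 correlated best with its own number. Tapbp and B2m, both near 0, changed sign with the sex term (-0.0625 and -0.0576) and with 1 library left out (ranges -0.0609 to 0.0963 and -0.0923 to 0.0974). The other 8 kept log2 fold changes above 0 in all 14 fits. Nlrc5, with 28 to 340 counts per library, had the lowest depth of the 10.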
